A study of Mus musculus with 35 samples.

Results

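Livers of mice that had breathed styrene at 40 or 120 ppm were compared with livers of mice that had breathed it at 1, 5 or 10 ppm. The 5 mice at 40 ppm and the 5 at 120 ppm were pooled into a high arm of 10 arrays, and the 5 mice at each of 1, 5 and 10 ppm into a low arm of 15 arrays, so that 25 of the 35 arrays of the study entered. The 5 air-breathing mice and the 5 mice at 20 ppm were left out and served only for a separate comparison at the end. All animals were adult wild-type C57Bl/6 males from Taconic, held 1 to a wire cage during a single 6-hour inhalation and killed the next morning with pentobarbital and exsanguination. Both arms therefore received styrene, and a gene that responds in full at 1 ppm would not differ here. Each array carried the liver RNA of 1 mouse, called a biological replicate in the labels. The p-values between the arms weigh the difference against the spread between mice within an arm. That spread includes differences between the concentrations of the arm.

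Styrene is an industrial solvent that the liver oxidises to styrene oxide, mainly through cytochromes CYP2E1 and CYP2F2. The oxide is opened to a glycol by epoxide hydrolase or joined to glutathione. The mouse liver also runs a strong daily programme: BMAL1 with CLOCK or NPAS2 drives the period genes and the PAR-bZIP factors, and the period proteins in turn hold BMAL1 activity down. Food intake, temperature and glucocorticoids set the phase of that programme, and the same signals move fat oxidation, sterol synthesis and chaperone genes. Inflammatory cytokines, through STAT3, turn on the acute phase proteins that hepatocytes secrete into blood.

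Values are log2 signals of probe sets from 3' expression arrays, and a difference of 1 is a doubling. Of 45037 probe sets tested, 16026 (35.6%) differed between the arms at an adjusted p under 0.05 in limma, 10349 (23%) higher and 5677 (12.6%) lower in the high arm. The median change over genes was 0.04, and the overall array level was also higher: the array median was 3.58 ± 0.03 (SD, n = 10) in the high arm and 3.52 ± 0.02 (SD, n = 15) in the low arm, a difference of 0.07 (permutation test, two-sided, adjusted p = 4e-05 over 4 array measures, from the smallest p that 100000 resamples can give). The direction of small changes depends on that shift. With each array centred on its median, 15698 probe sets passed, 6370 higher and 9328 lower, so 40.6% of calls were higher instead of 64.6%, and after a second quantile normalization 48% were higher. At a fold of at least 1.5, 1610 probe sets were called (3.57%), 1170 higher (2.6%) and 440 lower (0.977%), 72.7% higher against 56.1% with centring and 55.6% after quantile normalization. By gene, taking the brightest probe set of each, 6437 of 17097 (37.6%) were called, 4039 (23.6%) higher and 2398 (14%) lower. Of these, 2273 higher and 2364 lower genes were called in the same direction under all 3 scalings, and 0 were called in opposite directions. The arms did not overlap at all for 245 genes that were higher (1.43%) and 134 that were lower (0.784%), 2.22% together.

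The actin control probe sets, which compare the 3' and 5' ends of the message, also differed: the 3' minus 5' value was 0.71 ± 0.06 (SD, n = 10) in the high arm and 0.55 ± 0.06 (SD, n = 15) in the low arm (permutation test, two-sided, adjusted p = 4e-05). The GAPDH controls gave 0.12 and 0.13 (p = 0.292, same permutation test). Actin mRNA itself fell, as described below, and the part of these measures in the gene results was not tested. Numbers in the sample names run with concentration, from 9 to 30 in the low arm and from 43 to 56 in the high arm, so any effect of that order and the effect of concentration cannot be told apart. On the first principal component (31.9% of the variance) the high arrays lay between 28.6 and 37 and the low arrays between -71.9 and 1.8. The lowest was 5 ppm replicate 1, without which 15714 probe sets were called. Within the low arm, no probe set differed among 1, 5 and 10 ppm in limma (0 called, 1964 at an unadjusted p under 0.05). Within the high arm, 7 probe sets (0.0155%) were called between 120 and 40 ppm, all higher at 120 ppm.

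**Figure D1:**
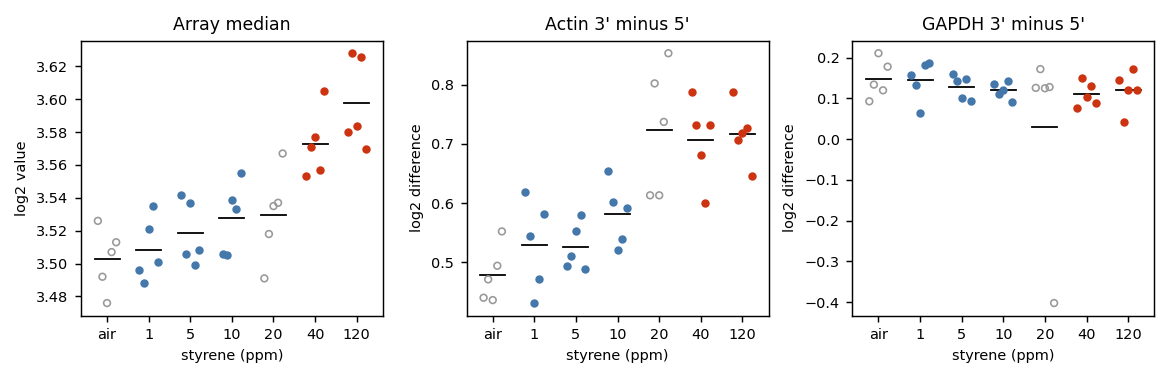
Array median (log2), actin 3' minus 5' and GAPDH 3' minus 5' (log2 differences) for each array by styrene concentration; blue points are the low arm, red points the high arm, open grey points the air and 20 ppm arrays left out, and lines are means. The median and the actin measure are higher at 40 and 120 ppm (means 3.58 and 0.71) than at 1 to 10 ppm (3.52 and 0.55), while GAPDH is at 0.12 and 0.13.

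The 12 largest rises included Acot3, Slc16a5, Fmo2, Mfsd2a, Mt1 and Gpat3, described here, and clock and acute phase genes, described with their lists. Acot3, a peroxisomal acyl-CoA thioesterase, was between 3.96 and 8.43 with a median of 4.47 in the low arm and between 6.61 and 10.01 with a median of 9.05 in the high arm. It rose by 4.13 ± 0.39 (SE, adjusted p = 1.36e-08), or 17.5-fold, with an overlap made by 10 ppm replicate 2 at the top of the low arm and 120 ppm replicate 5 at the bottom of the high arm. Probes for Acot genes may read more than 1 member of that family. Slc16a5, a monocarboxylate transporter, went from 3.20, 4.11 and 7.21 (lowest, median and highest) to 6.28, 7.56 and 8.14, a rise of 3.12 ± 0.34 (adjusted p = 1.05e-07). Mfsd2a, the carrier of lysophosphatidylcholine that fasting induces, rose by 2.18, and Gpat3, which starts triglyceride synthesis, by 1.88. Fmo2, a flavin monooxygenase, ran from 4.03 through 4.44 to 5.93 at low and from 5.83 through 7.04 to 7.47 at high styrene. Its rise of 2.44 ± 0.17 (adjusted p = 4.59e-11) left an overlap of 1 high array, 120 ppm replicate 5. Mt1, the metal-binding metallothionein, ran from 8.73 to 13.17 in the low arm and from 11.84 to 13.47 in the high arm, a rise of 1.96 ± 0.40 (adjusted p = 0.000441) with wide overlap.

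Among the falls, Elovl3, which lengthens fatty acids and is high in male liver, had the smallest p of all genes. It lay between 11.78 and 12.79 (median 12.31) in the low arm and between 9.17 and 10.40 (median 9.88) in the high arm. No high array reached the low range, and the fall was by 2.41 ± 0.12 on the log2 scale (adjusted p = 5.97e-14). Bcl6, a repressor that is likewise male-biased in liver, fell by 2.55 ± 0.41 (adjusted p = 2.7e-05), from a median of 7.43 to 5.42, with the arms overlapping between 6.20 and 6.31. Cdh1, the E-cadherin of epithelial junctions, fell by 1.63 without overlap, from a low-arm range of 8.05 to 9.19 to a high-arm range of 6.54 to 7.85. Slc22a7, an organic anion transporter, fell 3.02-fold, from a range of 8.95 to 10.33 to one of 7.07 to 8.71, also without overlap. Chka, the choline kinase that starts phosphatidylcholine synthesis, fell by 1.57 and Grk5, a receptor kinase, by 1.71. For Grk5 the mean of its probe sets fell by 1.12.

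**Figure D2:**
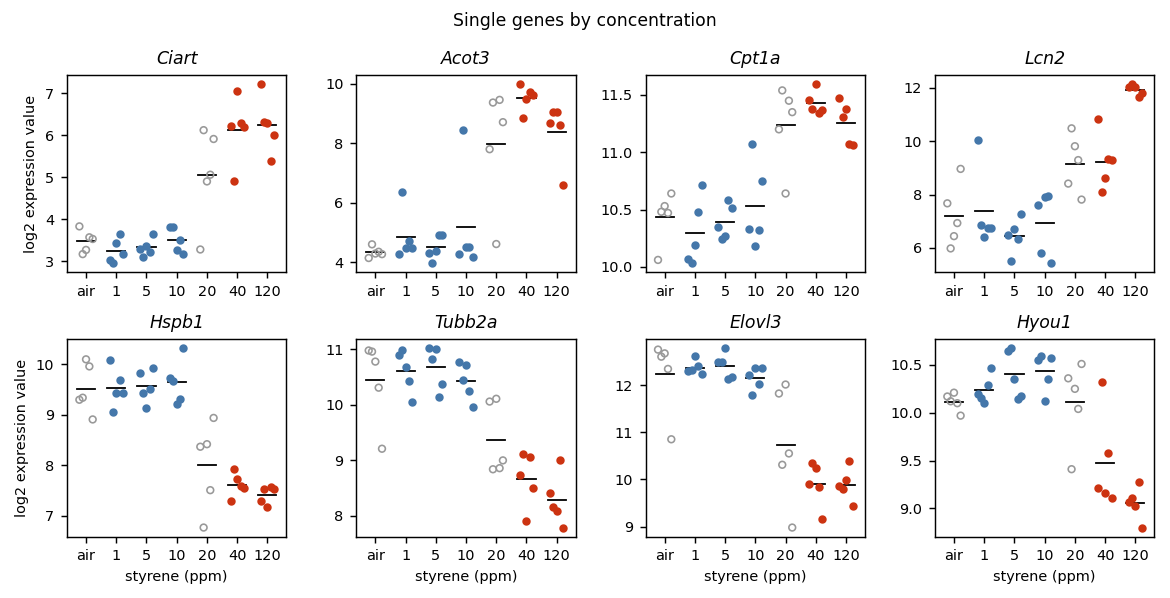
Log2 signal of 8 genes on each array by styrene concentration, with blue points for the low arm, red for the high arm, open grey for the air and 20 ppm arrays, and a line at each mean. Ciart, Hspb1, Tubb2a and Elovl3 separate the arms, whereas 1 or more arrays of Acot3, Cpt1a, Lcn2 and Hyou1 lie in the range of the other arm.

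Clock genes moved in opposite directions on the period and PAR-bZIP side and on the BMAL1 side. Of 11 measured genes on the period and PAR-bZIP side, 10 were higher (90.9%, against 23.6% of all genes), 0 lower, with a median change of 1.04. Of the 11, 6 were higher without overlap between the arms, against 1.43% of all genes. Of 5 genes on the BMAL1 side, 4 were lower (80%, against 14% of all genes), with a median of -1.02. These lists describe the data and were drawn up with earlier results known. The same shares of all genes, 23.6% higher and 14% lower, are the background for each list count that follows. The E-box CACGTG, which BMAL1 dimers recognise, lay within 250 bases before the start of 4 of 10 period-side genes with a promoter sequence, and of 6.86% of all genes with one (1 or more matches in any of a gene's promoters, either strand). The D-box TTATGTAA or TTATGCAA, which the PAR-bZIP factors recognise, lay in 2 of 10 against 1.79%. Of the period-side genes with a match in 250 bases, 3 of 4 for the E-box and 2 of 2 for the D-box were called. Dbp, Usp2 and Hlf, described below, held neither motif. Within 100 bases the counts were 1 of 10 for the E-box (3.7% of all genes) and 1 of 10 for the D-box (0.796%). On the BMAL1 side 1 of 5 promoters held the E-box and 0 of 5 the D-box. The promoter with the most E-boxes among these genes was that of Ciart, and the one with the most D-boxes was that of Per3, shown 5' to 3' up to the base before the start, from RefSeq on GRCm38.p6, with the motifs in capitals. Ciart is at chr3:95882229-95882478 on the minus strand, with matches starting 116, 58 and 44 bases before the gene. Per3 is at chr4:151044666-151044915 on the minus strand, with matches starting 205 and 158 bases before it.
Ciart: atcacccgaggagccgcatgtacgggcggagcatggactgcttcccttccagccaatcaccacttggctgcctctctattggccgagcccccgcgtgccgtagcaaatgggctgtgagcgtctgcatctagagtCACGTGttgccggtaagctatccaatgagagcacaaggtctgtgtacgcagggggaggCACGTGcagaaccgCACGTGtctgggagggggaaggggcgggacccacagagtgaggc
Per3: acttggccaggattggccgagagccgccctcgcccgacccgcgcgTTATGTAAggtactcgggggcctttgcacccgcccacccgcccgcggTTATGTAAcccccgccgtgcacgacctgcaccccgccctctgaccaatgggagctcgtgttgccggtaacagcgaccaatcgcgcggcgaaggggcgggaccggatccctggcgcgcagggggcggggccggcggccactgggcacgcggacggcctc
Both were picked for their motif count after their values were seen, and a match is a string of letters, not a measured site.

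Ciart encodes a repressor of BMAL1 activity. Its signal ran from 2.95 through 3.30 to 3.82 in the low arm and from 4.91 through 6.25 to 7.23 in the high arm. The arms were far apart, and Ciart rose by 2.82 ± 0.18 (SE, adjusted p = 6.09e-12), 7.08-fold. Usp2, a deubiquitinase under clock control, rose by 2.59 ± 0.17 (adjusted p = 1.66e-11), from a low-arm range of 4.91 to 6.81 to a high-arm range of 7.69 to 9.09, again without overlap. The PAR-bZIP factor Dbp spread more widely, from 2.85 through 4.34 to 7.54 at low and from 7.06 through 7.97 to 9.15 at high styrene, a rise of 3.10 ± 0.51 (adjusted p = 3.48e-05). Hlf, of the same family, rose by 0.92 and Per3 by 1.86, neither with overlap. On the opposite side Arntl, the gene for BMAL1, fell by 1.18 ± 0.13 (adjusted p = 1.16e-07) from a range of 6.28 to 7.13 to one of 4.76 to 6.02, without overlap. Npas2 fell by 1.55 and Nfil3, a repressor at D-boxes, by 1.02, both with overlap. The mean over all probe sets gave smaller falls for Arntl (0.58) and Npas2 (0.89), still called. Dbp and Npas2 also had a limma slope on the place of the sample number within its concentration. The slope per place was 0.66 ± 0.13 (SE) for Dbp and -0.21 ± 0.05 for Npas2 (adjusted p = 0.0112 and 0.0362). Each ran in the direction of the change between the arms. Over all probe sets, 373 of 45037 had such a slope at an adjusted p under 0.05. With place as a covariate, 0 of the called named genes lost the call. Place runs alike in every concentration, so that fit cannot move the estimates between the arms. It does not address the order of sample numbers between the arms. The mean signal of the period-side list was 5.14 to 6.17 at low and 6.71 to 7.33 at high styrene, so no array crossed over.

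Most of the heat shock genes were lower in the high arm. Of 19 measured heat shock genes of cytosol and mitochondria, 13 were lower (68.4%, all genes 14%) and 1 higher (5.26%, all genes 23.6%), with a median of -0.30. The heat shock element, searched as GAANNTTC or TTCNNGAA on either strand, lay in the 250-base promoter of 7 of 15 of these genes and of 14.5% of all genes, and within 100 bases of 5 of 15 and 6.06%. Of the 7 genes with it in 250 bases, 4 were called, and the promoter of Stip1, described below, did not hold it. Hspb1, the gene in this list with the smallest p, is at chr5:135887669-135887918 on the plus strand, with matches starting 117 and 97 bases before the start. Hspe1, at chr1:55087898-55088147 on the plus strand and chosen after its values were seen, had the most matches, 3 that overlap and start 89, 84 and 79 bases before the gene.
Hspb1: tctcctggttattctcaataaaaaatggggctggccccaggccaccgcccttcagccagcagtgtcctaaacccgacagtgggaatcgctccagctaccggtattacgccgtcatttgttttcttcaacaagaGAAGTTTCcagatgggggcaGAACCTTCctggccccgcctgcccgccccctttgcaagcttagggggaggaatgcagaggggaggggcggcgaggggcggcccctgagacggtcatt
Hspe1: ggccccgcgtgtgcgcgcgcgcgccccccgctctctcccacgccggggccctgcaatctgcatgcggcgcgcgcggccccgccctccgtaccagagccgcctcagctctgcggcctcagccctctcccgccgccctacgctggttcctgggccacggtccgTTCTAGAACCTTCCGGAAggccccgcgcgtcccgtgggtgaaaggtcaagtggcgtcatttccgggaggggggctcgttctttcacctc
Hspb1, a small heat shock protein that keeps unfolded proteins soluble, ran from 9.06 through 9.52 to 10.33 at low styrene and from 7.17 through 7.54 to 7.92 at high styrene. There was a gap between the arms, and Hspb1 fell by 2.07 ± 0.12 (SE, adjusted p = 1.13e-12). Hspe1, the mitochondrial co-chaperonin, fell by 0.28 (adjusted p = 0.00197). Hspa1b, an inducible HSP70 gene whose probes may also read its near-identical neighbour, fell by 3.01 ± 0.33 (adjusted p = 1.22e-07), the largest fall of all genes. Its low-arm values were 8.46, 10.92 and 11.78 (lowest, median, highest) and its high-arm values 6.91, 7.35 and 9.52. Hsph1, an exchange factor for HSP70, fell by 1.51 and Stip1, which links HSP70 to HSP90, by 1.02, the latter without overlap. With the mean of its probe sets, the fall of Hspb1 was 1.31. Hspa1b had a limma slope of -0.38 ± 0.09 (SE) per place of the sample number within its concentration (adjusted p = 0.0394). That slope also ran in the direction of its change between the arms.

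Chaperones of the endoplasmic reticulum (ER) were lower in 14 of 22 measured genes (63.6%, all genes 14%), with 0 higher and a median of -0.37. Hyou1, an ER chaperone of the HSP70 class, lay between 10.10 and 10.68 (median 10.35) in the low arm and between 8.80 and 10.32 (median 9.14) in the high arm. Apart from 1 array every high value was at or below 9.58, and Hyou1 fell by 1.09 ± 0.12 (adjusted p = 9.36e-08). Manf, a secreted ER stress factor, fell by 1.13, Dnajb11, an ER co-chaperone, by 0.77, and Creld2, another ER stress gene, by 1.68. That array was 40 ppm replicate 2, whose mean over the ER list was 10.32 when no other high array passed 9.60, within the low-arm range of 9.73 to 10.33. Without it the ER list counted 16 lower genes with a median of -0.43, and Creld2 fell by 1.99, Manf by 1.29 and Hyou1 by 1.21. Secretory machinery, the translocon and signal peptidase subunits that feed the ER, was lower in 13 of 25 genes and higher in 3, with a median of -0.17. Examples were Ssr2 (fell by 0.53), Sec61a1 (by 0.44) and Spcs2 (by 0.43). Targets of ATF4, the factor of the amino acid and integrated stress response, showed no common direction: 2 of 17 were higher (Fgf21 0.92, Trib3 0.61), 2 lower, with a median of 0.01. Psph, of serine synthesis, fell by 0.92 without overlap. Without the 40 ppm group Fgf21 and Trib3 no longer passed (adjusted p = 0.181 and 0.126), nor did Fgf21 without 1 ppm (0.0756) or Trib3 without 120 ppm (0.0554).

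**Figure D3:**
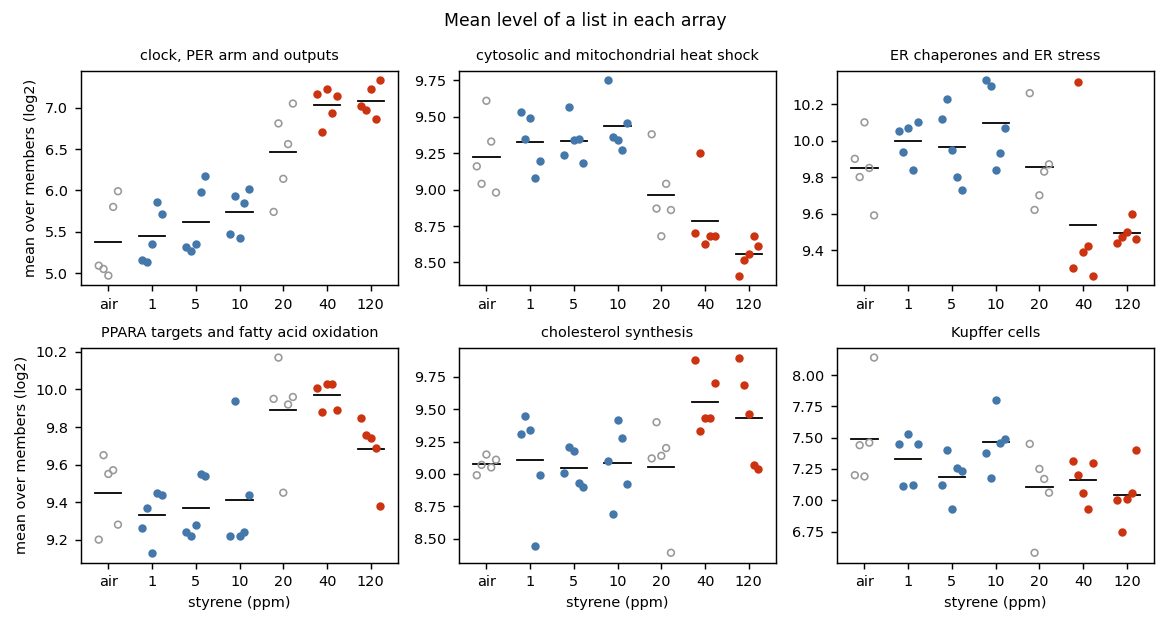
Mean log2 signal over the measured genes of 6 lists (period-side clock, heat shock, ER chaperones, PPARA targets, cholesterol synthesis, Kupffer markers) on each array by styrene concentration, coloured as before with lines at the means. The period-side clock level separates the arms (at most 6.17 against at least 6.71), and 40 ppm replicate 2 stands at 10.32 in the ER panel, among the low-arm arrays.

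Acute phase proteins rose in 13 of 22 measured genes (59.1%, all genes 23.6%), 0 fell, and the list median was 0.36. Lcn2, a siderophore-binding protein that hepatocytes release in inflammation, ran from 5.42 through 6.73 to 10.06 in the low arm and from 8.10 through 11.24 to 12.16 in the high arm. The arms overlapped, and Lcn2 rose by 3.67 ± 0.49 (SE, adjusted p = 2.64e-06), 12.7-fold. Its mean was 9.24 at 40 ppm and 11.94 at 120 ppm, and without the 120 ppm group the rise was 2.32. The serum amyloid genes Saa1 and Saa2, whose probes may share targets, rose by 1.90 and 2.10, and Saa2 by 1.23 (adjusted p = 0.0419) without 120 ppm. Serpina3n, a protease inhibitor, lay between 10.10 and 11.16 (median 10.44) at low and between 11 and 12.57 (median 11.92) at high styrene, a rise of 1.40 ± 0.15 (adjusted p = 1.1e-07), or 0.89 without 120 ppm. Itih3, an inter-alpha-trypsin inhibitor chain, rose by 0.45. The STAT element TTCNNNGAA lay in the 250-base promoter of 6 of 21 acute phase genes and of 8.13% of all genes, and within 100 bases of 2 of 21 and 3.0%. Of the 6 genes with it in 250 bases, 3 were called, against 13 of 22 over the list. The promoters of Lcn2, Saa1, Saa2, Serpina3n and Itih3, named above, and of Orm2, named below, did not hold it.

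Acute phase genes were also among the 6 genes (0.0351%) that differed between 120 and 40 ppm. Orm2, an orosomucoid whose probes may read related copies, was 7.88 at 40 ppm and 10.30 at 120 ppm, a difference of 2.42 (adjusted p = 7.21e-05). Serpina3n was higher at 120 ppm by 1.01 (adjusted p = 0.00171). Prg4, which encodes lubricin, was higher by 1.56, Cyb561, a transmembrane electron carrier, by 1.13, and Cpne8, a calcium-binding copine, by 0.84. Prtn3, a granule protease of myeloid cells, was 3.72 at 40 ppm and 5.26 at 120 ppm, a difference of 1.54 (adjusted p = 1.05e-05), against 3.74 in the low arm. Its call between the arms (a rise of 0.74, adjusted p = 0.00729) was lost without 120 ppm, where the difference was -0.03 (adjusted p = 0.893).

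IL-6 and STAT3 signalling genes were higher in 4 of 14 (28.6%) and lower in 2 (14.3%), near the 23.6% and 14% of all genes, with a median of 0.22. Cish and Socs3, feedback inhibitors of cytokine receptors, rose 2.83-fold (adjusted p = 1.91e-05) and 2.06-fold (adjusted p = 0.000135). Lifr, the receptor subunit for leukaemia inhibitory factor, fell by 1.22, or by 0.58 with the mean of its probe sets. Of 12 neutrophil and granule markers, 4 were higher and 0 lower, 1 of the 4 being Lcn2, which is also on the acute phase list. Mpo, the neutrophil peroxidase, was 3.36 in the low arm and 3.56 in the high arm, while the defining genes S100a8 and S100a9 were near the bottom of the scale (3.33 and 3.00, 3.37 and 3.51) and not called. The mean over the 12 markers was 3.44 to 4.29 at low and 3.76 to 4.37 at high styrene, and its part in the acute phase rise was not tested. Interferon response and antigen presentation genes were lower in 7 of 22 and higher in 1, with a median of -0.14, and with centring 11 were lower. Irf9, of the interferon-stimulated factor, fell by 0.37 and Psmb9, an immunoproteasome subunit, by 0.45 (by 0.25 over all its probe sets), while Nlrc5, an activator of class I genes, rose by 0.62.

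The genes that handle styrene itself moved little. Of 16 measured genes for its oxidation, hydrolysis and conjugation, 5 were higher, 3 lower and 8 not called, with a median of 0.03 (4 and 4, with a median of -0.03, after centring). Cyp2e1 ran from 13.22 through 13.35 to 13.46 in the low arm and from 13.52 through 13.54 to 13.59 in the high arm. The ranges did not touch although the rise was only 0.20 ± 0.04 (SE, adjusted p = 7.53e-05), 1.15-fold, near the top of the signal scale. Cyp2f2 lay between 12.94 and 13.13 (median 13.02) at low and between 12.58 and 12.94 (median 12.77) at high styrene. It fell by 0.22 ± 0.04 (adjusted p = 0.000225), or by 0.13 (adjusted p = 0.0491) without the 120 ppm group. Aldh3a2, a fatty aldehyde dehydrogenase, rose by 0.44 and Cyp2a5, a monooxygenase, by 0.32 (not called without 120 ppm, adjusted p = 0.0848). Ephx2, the soluble epoxide hydrolase, rose by 0.23, but by 0.15 (adjusted p = 0.059) without 40 ppm. Aldh1a1 rose by 0.19 and did not pass with centring (0.12, adjusted p = 0.0782) or without 40 ppm (0.17, adjusted p = 0.086). The microsomal hydrolase Ephx1 was not called (medians 11.50 and 11.42, difference -0.12, adjusted p = 0.353). Glutathione transferase Gstp1 fell by 0.17 (adjusted p = 0.0717 without 120 ppm). Gstt1 fell by 0.19 with an adjusted p of 0.0461, and the call was lost without any 1 of 1 ppm replicates 1, 2, 4 and 5, 5 ppm replicates 1, 4 and 5, 10 ppm replicate 2, 40 ppm replicate 2 or any 120 ppm array (largest adjusted p = 0.0923). Gstm1 (-0.07), Mgst1 (0.03), Adh1 (0.04), Adh4 (0.08), Aldh2 (0.00), Cyp2c29 (-0.11) and Cyp2b10 (0.38) were not called, though Cyp2c29 was with centring (-0.18, adjusted p = 0.0152).

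Xenobiotic receptor targets gave different pictures. Targets of the receptors CAR and PXR were higher in 10 of 20 genes and lower in 1, with a median of 0.32. Cyp3a13 ran from 8.54 through 9.67 to 10.61 at low and from 10.49 through 10.83 to 11.29 at high styrene, nearly without overlap, a rise of 1.20 ± 0.15 (adjusted p = 7.66e-07). Cyp2b9, a female-biased cytochrome, rose by 0.75. The 1 lower gene was Cyp2c55, which fell by 2.17 ± 0.33 (adjusted p = 1.13e-05), from a median of 7.89 to 5.41. Cyp2b10, the usual reporter of CAR, spread from 4.22 to 8.48 in the low arm alone. NRF2 targets, the antioxidant set that electrophiles induce, were lower in 11 of 31 and higher in 5, with a median of -0.08. Gsta4, which conjugates lipid aldehydes, fell by 0.69 ± 0.10 (adjusted p = 4.77e-06), and Taldo1, of the pentose phosphate path, by 0.50 without overlap, while the quinone reductase Nqo1 rose by 0.78 ± 0.11 (adjusted p = 6.22e-06) and the bile pigment exporter Abcc2 by 0.47. Targets of the aryl hydrocarbon receptor were 3 higher and 3 lower of 10: Cyp1a2 fell by 0.69 from a range of 11.86 to 12.34 to one of 11.14 to 11.79, and Tiparp rose by 0.53. Of 13 p53 targets, 5 were higher and 0 lower, but the median was 0.04 (-0.03 with centring), and the named ones moved by 0.35 (Phlda3), 0.31 (Ccng1) and 0.26 (Ei24). Ccng1 was not called without 120 ppm (adjusted p = 0.0666).

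**Figure D4:**
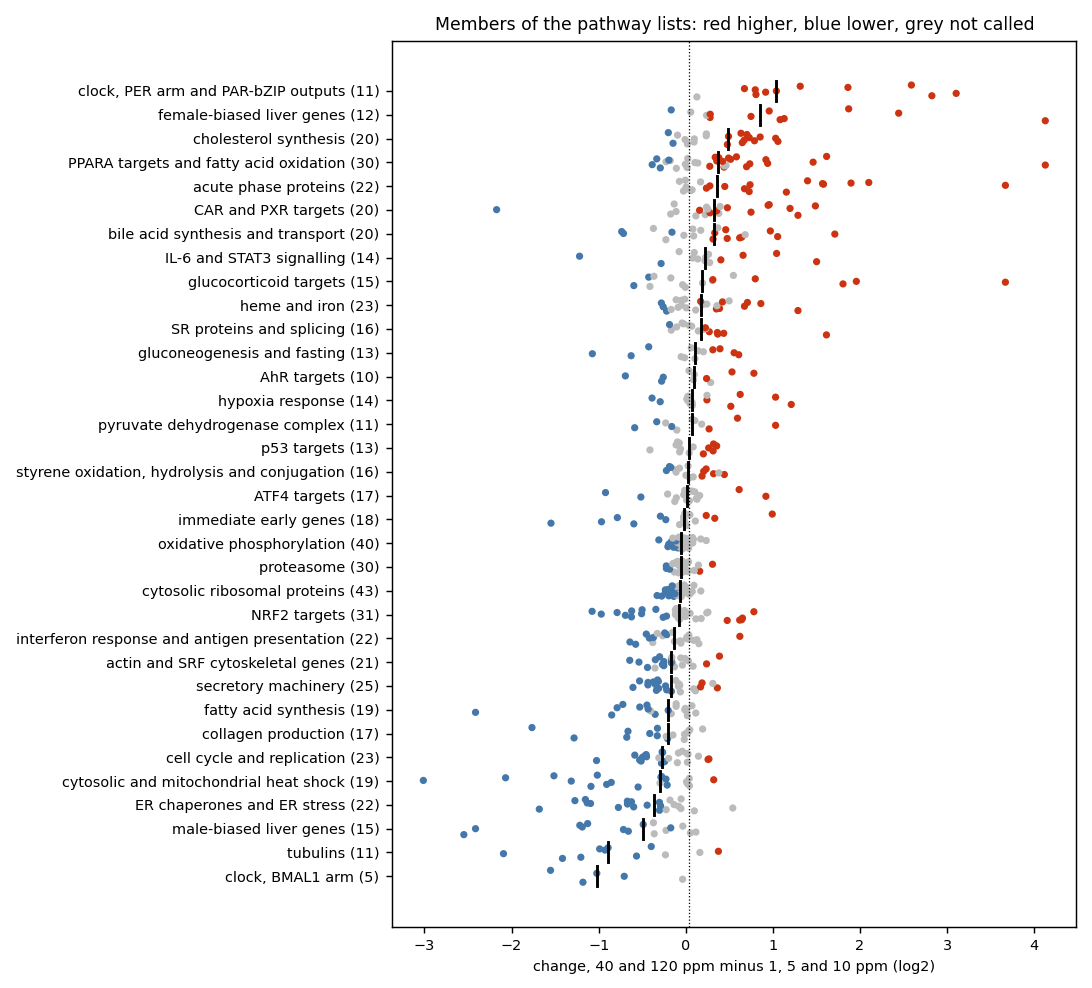
Change between the arms (log2, high minus low) of each measured gene in 34 lists, 1 row a list; red points passed the test upwards, blue points downwards, grey points did not pass, the bar is the list median and the dotted line the median of all genes at 0.04. The period-side clock (1.04) and female-biased liver genes (0.85) lie farthest right, and the BMAL1 side (-1.02) and tubulins (-0.89) farthest left.

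Many genes of fat oxidation rose, and many of fat synthesis fell. PPARA targets, the oxidation programme that fatty acids induce in fasting, were higher in 16 of 30 genes and lower in 4, with a median of 0.37. Cpt1a, which admits long-chain fatty acids to mitochondria, ran from 10.03 through 10.33 to 11.07 in the low arm and from 11.06 through 11.37 to 11.60 in the high arm. The arms barely overlapped, and Cpt1a rose by 0.94 ± 0.10 (SE, adjusted p = 3.54e-08). Hadhb, of the trifunctional oxidation complex, rose by 0.51 with 120 ppm replicate 5 the lowest of the high arm at 10.91. The acyl-CoA thioesterase with the largest rise of all genes is on this list and on the list of female-biased genes. Fatty acid synthesis was lower in 9 of 19 genes with 0 higher and a median of -0.20. Besides Elovl3, Me1, the malic enzyme that supplies NADPH, fell by 0.79, and Acacb, which makes the malonyl-CoA that blocks CPT1, by 0.85 (by 0.36 over all its probe sets).

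Cholesterol synthesis was higher in 11 of 20 genes and lower in 2, with a median of 0.48. Lss, the lanosterol synthase, rose by 1.03 ± 0.19 (adjusted p = 0.000109), from values of 5.02, 5.64 and 6.81 (lowest, median, highest) to 6.00, 6.74 and 7.49, with overlap. Hsd17b7 rose by 0.79 and the sterol carrier Stard4 by 0.63. Bile acid synthesis and transport was higher in 9 of 20 and lower in 3, with a median of 0.32. Nr1h4, the bile acid receptor FXR, lay between 8.06 and 8.89 at low and between 8.98 and 9.76 at high styrene, a rise of 0.97 ± 0.10 (adjusted p = 2.11e-08) without overlap, and the basolateral exporter Abcc4 rose by 0.64.

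Genes of fasting and glucose output did not move as a block: 4 of 13 were higher and 3 lower, with a median of 0.10. Gpt2, the alanine transaminase of mitochondria, rose by 0.61 ± 0.06 (adjusted p = 3.7e-08) without overlap, but Igfbp1 fell by 1.07 ± 0.20 (adjusted p = 0.000127) and the glucose-6-phosphatase gene G6pc by 0.63. Glucocorticoid targets were higher in 5 of 15 and lower in 2, with a median of 0.19. Fkbp5, which tunes the glucocorticoid receptor, ran from 7.09 through 8.09 to 9.27 in the low arm and from 9.34 through 9.96 to 10.29 in the high arm. It separated the arms and rose by 1.80 ± 0.18 (adjusted p = 2.68e-08), or by 1.17 with the mean of its probe sets. Per1, which is both a clock and a glucocorticoid target gene, rose by 0.80. In the pyruvate dehydrogenase complex 3 of 11 were higher and 3 lower: Pdk1, a kinase that switches the complex off, rose by 1.03, its phosphatase subunit Pdpr rose by 0.59, and its E1 subunit Pdhb fell by 0.59, each without overlap. Hypoxia response genes were higher in 5 of 14 (35.7%, all genes 23.6%) and lower in 2 (14.3%, all genes 14%), and their median of 0.07 was near that of all genes, 0.04. Among them were Bnip3, a mitophagy receptor, up by 1.21 ± 0.10 (adjusted p = 1.56e-09) and Vegfa, the endothelial growth factor, by 0.62, both without overlap.

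Some members of abundant housekeeping groups fell by small amounts, beside 14% of all genes lower and 23.6% higher. Ribosomal proteins were lower in 18 of 43 (41.9%) with 0 higher and a median of -0.07 (30 lower with centring), for example Rplp1, by 0.24, and Rplp0, by 0.22, both without overlap. Oxidative phosphorylation subunits were lower in 9 of 40 (22.5%) with 0 higher (20 lower with centring), such as Ndufs7, by 0.31, and Cox5a, by 0.21. Proteasome subunits were lower in 4 of 30, 13.3% and near the share of all genes, and higher in 2 (11 and 1 with centring); Psmb5 and Psmc4 fell, each by 0.22. Heme and iron genes were higher in 8 of 23 and lower in 3, but 5 and 7 with centring. The iron exporter Slc40a1 rose by 0.71 ± 0.11 (adjusted p = 2.44e-05) without overlap, Cpox of heme synthesis by 0.39, and the ferritin light chain Ftl1 fell by 0.26.

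Cytoskeleton genes showed some of the clearest separations. Tubulins were lower in 8 of 11 and higher in 1, with a median of -0.89. Of the 11, 6 were lower without overlap between the arms, against 0.784% of all genes. Tubb2a, a beta-tubulin, ran from 9.97 through 10.69 to 11.03 at low and from 7.79 through 8.46 to 9.11 at high styrene, and it fell by 2.09 ± 0.16 (SE, adjusted p = 2.04e-10). Tuba1b fell by 1.21 ± 0.09 (adjusted p = 6.46e-11) and Tuba1a by 1.42, and probes of such close copies may read more than 1 gene. Actin and its SRF-controlled partners were lower in 10 of 21 and higher in 2, with a median of -0.17: Actb fell by 0.44 without overlap, Tmsb10, which holds actin monomers, by 0.64, and Cfl1, which cuts filaments, by 0.25 (0.15 without 40 ppm). Collagen production was lower in 8 of 17 with 0 higher. Serpinh1, the collagen chaperone that is also a heat shock gene, fell by 1.77 ± 0.13 (adjusted p = 1.95e-10), from a range of 6.78 to 7.81 to one of 5.00 to 6.25. Col3a1 fell by 1.28 (by 0.67 over all its probe sets) and Col4a1 by 0.68 (by 0.40). Of 16 SR protein and splicing genes, 6 were higher and 1 lower (2 and 1 with centring). Cirbp, an RNA-binding protein that cold induces, ran from 4.29 through 4.95 to 5.42 in the low arm and from 5.80 through 6.35 to 7.41 in the high arm, and rose by 1.61 ± 0.15 (adjusted p = 7.82e-09).

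Genes that differ between male and female liver, through the pattern of growth hormone, changed in both directions in these males. Of 15 male-biased genes, 9 were lower with 0 higher and a median of -0.49, and of 12 female-biased genes, 9 were higher and 1 lower with a median of 0.85. Besides Elovl3 and Bcl6, the peroxisomal hydrolase Nudt7 fell by 1.22 ± 0.14 (adjusted p = 3.7e-07) and Cyp2u1 by 0.66, both without overlap. Trim24, a nuclear receptor cofactor, ran from 4.22 through 5.62 to 6.45 at low and from 6.94 through 7.36 to 7.48 at high styrene. It rose by 1.87 ± 0.20 (adjusted p = 1.05e-07) without overlap, or by 1.10 with the mean of its probe sets. The mean level of the male-biased list was 10.13 to 10.74 at low and 9.29 to 10.03 at high styrene.

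Cell cycle and replication genes were lower in 12 of 23 and higher in 2, with a median of -0.27, at low signals. Mcm7 and Mcm2, of the replicative helicase, fell by 0.46 and 0.50 (Mcm2 by 0.26 over all its probe sets), and cyclin Ccnd2 by 0.53 (by 0.33). Immediate early genes were lower in 6 of 18 and higher in 3. Fos fell by 0.97 ± 0.25 (adjusted p = 0.00419) but was not called without 120 ppm (-0.85, adjusted p = 0.0742). Myc rose by 0.99 ± 0.16 (adjusted p = 2.57e-05), from values of 4.68, 5.04 and 5.56 to 5.23, 6.02 and 7.45.

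Marker genes check the tissue and the other cells it holds. The 12 hepatocyte markers had a mean level of 12.75 to 12.86 in the low arm and 12.78 to 12.87 in the high arm, near the top of the scale, so the labelled tissue carried its defining genes. Kupffer cells, the resident macrophages, had 9 of 14 markers lower and 1 higher, with a median of -0.34. C1qa, of complement, ran from 8.08 through 8.52 to 8.76 at low and from 7.72 through 7.90 to 8.21 at high styrene, and it fell by 0.51 ± 0.07 (SE, adjusted p = 3.75e-06). The lectin receptor Clec4f, which only these cells carry in liver, fell by 0.54 ± 0.07 (adjusted p = 2.99e-06). The higher one, Slc40a1, is also made by other cells, and Timd4, Marco and Vsig4 were not called (changes of 0.06, -0.24 and 0.22). The mean over the 14 markers was 6.93 to 7.80 at low and 6.75 to 7.40 at high styrene. In bulk tissue fewer cells of a type and less RNA per cell cannot be told apart, here and for every list above. The part of these markers in the interferon, actin and collagen counts was not tested.

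Sinusoidal endothelium had 5 of 14 markers lower and 2 higher, with the scavenger receptor Stab1 down by 0.30 and its relative Stab2 up by 0.25 (0.17, adjusted p = 0.134, without 40 ppm). Stellate cells and fibroblasts had 2 higher and 2 lower of 13 (0 and 4 with centring): Dcn rose by 0.18 and Rgs5 by 0.45, and neither passed with centring, nor Dcn without 40 ppm replicate 1 (0.15, adjusted p = 0.0522) or Rgs5 without 40 ppm replicate 5 (0.36, adjusted p = 0.0537). Cholangiocytes had 1 of 7 lower, Sox9, by 0.31. Its call was lost without any 1 of 5 ppm replicate 1, 10 ppm replicates 1 and 2, 40 ppm replicate 2 or 120 ppm replicates 1, 3, 4 and 5 (largest adjusted p = 0.0615), and its mean over all probe sets was -0.05. Lymphocytes had 4 of 13 higher (30.8%, all genes 23.6%) and 1 lower, with the B-cell gene Cd79a up by 0.34 and the T-cell gene Cd3e down by 0.28 (-0.20, adjusted p = 0.148, without 40 ppm). The mean over the 13 markers was 3.32 to 3.51 at low and 3.41 to 3.53 at high styrene, near the bottom of the scale. Erythroid cells had 1 of 5 lower, Alas2, by 0.61. Exocrine pancreas, lung and adipose genes, checked for carry-over, had 4 of 10, 0 of 8 and 2 of 5 lower and 1, 2 and 0 higher. Among the lower adipose genes was Car3, with a low-arm median of 12.79, near the top of the scale. Its 4 probe sets ran from -1.1 to 0.52, and their mean was not called (-0.15, adjusted p = 0.651). The higher lung gene Sftpa1 had 1 probe set called higher and 1 lower, and their mean was not called (0.10, adjusted p = 0.188). Cela1, a pancreas gene that liver also transcribes, fell by 1.08 without overlap, whereas Cpb1 and the trypsinogen Prss1 were at 3.35 and 3.75 (low-arm medians), near the bottom of the scale.

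The 10 arrays left out gave a comparison in other mice, 20 ppm against air. Their sample numbers also run with concentration, from 1 to 8 in air and from 33 to 40 at 20 ppm, so order and concentration cannot be told apart here either. The actin 3' minus 5' value differed there as well, at 0.44 to 0.55 on the air arrays and 0.61 to 0.85 on the 20 ppm arrays, and GAPDH was at -0.40 on 20 ppm replicate 5 against 0.09 or more on the other 9. The 8 lung markers had a mean level of 3.46 to 5.07 on the air arrays and 3.16 to 3.60 at 20 ppm, with a median change of -0.29 (-0.11 without air replicate 4). Air replicate 4 was the highest for lung (5.07) and for cholangiocyte markers (4.32, the other air arrays 3.06 to 3.21). The part of these measures was not tested. With 5 mice a group, limma called 0 probe sets there (5343 at an unadjusted p under 0.05). Over all genes the estimates of the 2 comparisons, which share no array, correlated with Pearson's r of 0.68, given as a description across genes, which are not independent replicates. Of the 6437 genes called between the arms, 5202 (80.8%) had the same sign at 20 ppm minus air, against 67.4% of all genes. Period-side clock genes had a median of 1.08 there, the BMAL1 side -0.66, tubulins -0.50, PPARA targets 0.29, fatty acid synthesis -0.50 and Kupffer markers -0.41. Other groups were near 0 at 20 ppm: ER chaperones had a median of -0.02 and cholesterol synthesis -0.03, against -0.37 and 0.48 between the arms. Heat shock genes stood at -0.24 and acute phase proteins at 0.14. Among single genes, Acot3 differed by 3.66, Slc16a5 by 2.89, Ciart by 1.58, Elovl3 by -1.51, Hspb1 by -1.52 and Hyou1 by 0.00. Without air replicate 4, r was 0.67 and 80.2% of the called genes had the same sign; without 20 ppm replicate 5, the values were 0.63 and 74.8%, against 67.2% and 63.4% of all genes. Leaving out 20 ppm replicate 5 also moved the medians of fatty acid synthesis to -0.33, of cholesterol synthesis to 0.17 and of ER chaperones to 0.01. Whether any list differed between the 2 comparisons was not tested.

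**Figure D5:**
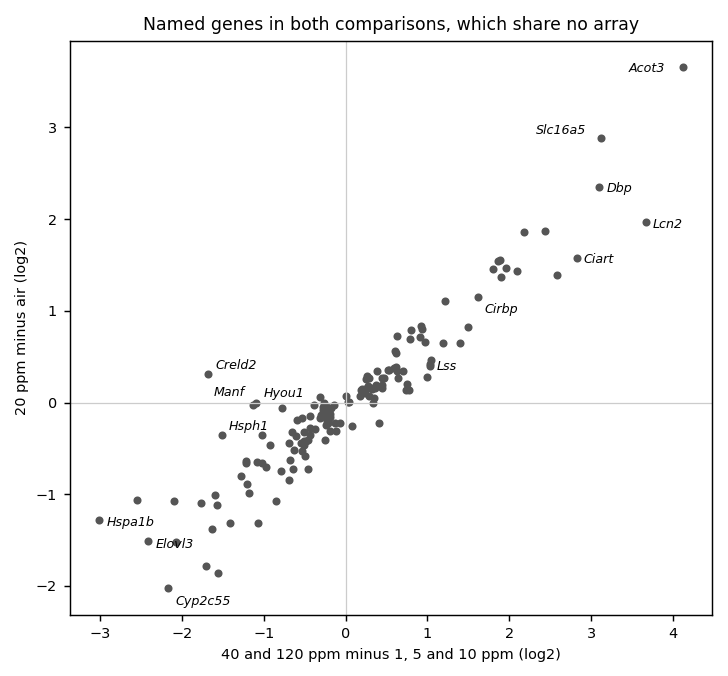
Change of the named genes between the high and low arms (x axis, log2) and between 20 ppm and air (y axis, log2), from arrays that the comparisons do not share. Acot3 is at 4.13 and 3.66, Ciart at 2.82 and 1.58 and Elovl3 at -2.41 and -1.51, while Hyou1 and Manf sit at -1.09 and -1.13 on the x axis and at 0.00 and -0.03 on the y axis.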

How the data were processed

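Total RNA from 35 mouse livers was hybridised to Affymetrix arrays with a 3' labelling kit, per the labels' protocols. The authors deposited 1 table of log2 values for 45141 probe sets, from 1.74 to 14.23; base 2 is taken from this range. RMA and Partek appear in the submitters' processing notes; which step each did, and in which version, is not given in the sources used here. Arrays carry no read depth, so their number limits the precision.

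The values were used as deposited, without 104 control probe sets. Gene symbols came from the platform annotation: 28898 probe sets had 1 symbol, 551 several and 15588 none, and a gene was read from its brightest probe set over the 35 arrays that named it alone. Arms were compared with limma 3.58.1 in R 4.3.3 (lmFit and eBayes, 25 arrays, Benjamini-Hochberg over 45037 probe sets, adjusted p under 0.05), a fit tested on simulated data. Array measures were compared with a two-sided permutation test of 100000 resamples (scipy 1.17.1). Promoters were 250 bases before each RefSeq start on GRCm38.p6, and motif counts used 1 or more matches on either strand. Genes were named by rule: the 12 largest rises and falls, the 6 smallest p-values and up to 3 called members of each list. Every measured gene of styrene metabolism was named too. Of the genes called between 120 and 40 ppm, only Prtn3 and Serpina3n were named by that rule. Other names were chosen after their values were seen. The comparison and the 45 lists, holding 726 measured genes, were chosen with earlier results of these data known. Alternatives changed the scaling, the model, the probe set rule, the set of probe sets and the arrays. Genes are uncertain where probes read close copies.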

Additional observations from a re-analysis of the deposited data

Results flagged for a closer look

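Of 150 groups of 10 high-arm values examined, 16 held an array far from the others by Dixon's criterion, which chance meets in about 5 of 100 groups. All groups share the same 10 arrays, at 2 concentrations, so they are not independent. That rate is therefore no test of the 16. The array 40 ppm replicate 2 was the highest of the high arm for Creld2 (11.49, nearest 9.01), Dnajb11 (9.75, nearest 8.94), Hspa1b (9.52, nearest 7.80), Hyou1 (10.32, nearest 9.58), Manf (11.34, nearest 10.16) and Ssr2 (8.22, nearest 8.01), and the lowest for Mt1 (11.84, nearest 12.80). The array 120 ppm replicate 5 was the lowest for Acot3 (6.61, nearest 8.60), Fmo2 (5.83, nearest 6.78), Hadhb (10.91, nearest 11.12) and Nfil3 (7.28, nearest 7.90). The remaining arrays far from the others were 120 ppm replicate 3 for Myc (7.45), 120 ppm replicate 1 for Npas2 (3.85), 40 ppm replicate 1 for Prss1 (3.89) and Taldo1 (10.0), and 40 ppm replicate 4 for Psmc4 (9.84), each the highest of the 10.

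Concentrations within the high arm differed by limma for 6 genes, all higher at 120 than at 40 ppm: Orm2 by 2.42, Prg4 by 1.56, Prtn3 by 1.54, Cyb561 by 1.13, Serpina3n by 1.01 and Cpne8 by 0.84 (adjusted p from 1.05e-05 for Prtn3 to 0.0235 for Cpne8). Only Prtn3 and Serpina3n are among the named genes counted below.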

How the results depend on the processing

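Leaving out each array in turn gave 14815 to 16056 called probe sets (9573 to 10350 higher, 5176 to 5763 lower, 1412 to 1746 with a fold of at least 1.5). Centring each array on its median gave 6370 higher and 9328 lower. The brighter 22519 probe sets alone gave 9757 calls, 6364 higher and 3393 lower, from fewer probe sets tested. Without the 40 ppm group 10812 were called, 3645 of them lower, and without the 120 ppm group 8627, 5638 higher and 2989 lower. Each of these fits had only 5 arrays in the high arm. Without the 1, 5 or 10 ppm group, also 5 arrays fewer, 13191, 14290 and 13682 were called. Of 138 named genes called, 4 lost the call when 1 array was left out and 27 under another setting, 15 of them without the 120 ppm group and 14 without the 40 ppm group. Prtn3 alone among them changed sign, at -0.03 without 120 ppm. Uncalled genes of styrene metabolism changed sign as follows: with centring Adh1 (-0.02), Mgst1 (-0.04) and Aldh2 (-0.07); after quantile normalization Mgst1 (-0.02) and Aldh2 (-0.03); without 10 ppm Aldh2 (-0.07) and Cyp2b10 (-0.08); without 40 ppm Aldh2 (-0.03); without 120 ppm Adh4 (-0.07) and Ephx1 (0.03). Aldh2 ran from -0.05 to 0.01 as single arrays were left out. The cause of these changes was not tested.

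Replicate numbers gave no clear pairing of the arrays. Deviations of same-numbered arrays correlated at a median of 0.02 over 50 pairs, 16 of them over 0.1. Arrays with different numbers correlated at a median of 0 over 200 pairs, 49 of them over 0.1. Of 25 arrays, 7 matched their own number best. With the number as a replicate block 15903 probe sets were called, and of the named genes Gstt1 lost its call (adjusted p = 0.0527). Signals near the bottom of the scale, such as those of neutrophil, lymphocyte and pancreas genes, limit what small changes there can show. For 20 ppm minus air, leaving out air replicate 4 or 20 ppm replicate 5, both chosen after seeing the data, left 0 probe sets called by limma (unadjusted p under 0.05 in 4512 and 4778).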
